A study of Arabidopsis thaliana with 28 samples.

Results

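The 9 genes described here act in iron sensing, iron movement and iron storage in Arabidopsis thaliana, and were measured as RNA in closed flower buds. They were taken by locus identifier from tables of 27416 genes: BTS (AT3G18290), PYE (AT3G47640), OPT3 (AT4G16370), FRO3 (AT1G23020), NAS4 (AT1G56430), and the ferritins FER1 (AT5G01600), FER2 (AT3G11050), FER3 (AT3G56090) and FER4 (AT2G40300). All 9 were found and all 9 were among the 21548 genes that passed the filter on low counts, NAS4 only through its counts in the mutants. They were chosen by their counts in these same libraries, with the differences between genotypes already known, so their levels and fold changes are given as a description, without a test.

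Plants regulate iron because it is needed for photosynthesis and respiration and is toxic when free. Under iron shortage, transcription factors of the bHLH IVc group, such as ILR3 and bHLH104, raise a set of genes for iron uptake and movement, and IRONMAN (IMA) peptides protect these factors from BTS, a RING-type ubiquitin ligase that carries iron-binding hemerythrin domains and targets them for degradation. BTS, PYE, OPT3, FRO3, NAS4 and the IMA genes are themselves raised by iron shortage in seedlings, and ferritins, protein shells that store iron mainly in plastids, are lowered by it. Flower buds are strong iron sinks, since developing anthers and pollen receive iron through the phloem.

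Buds of 4 genotypes were sequenced with 2 libraries each: the double mutant ibm1 jmj27, the mutants pds5 and ibm1, and Col, the Columbia wild-type control. IBM1 and JMJ27 remove methyl groups from lysine 9 of histone H3, and PDS5 proteins regulate the cohesin ring. The labels give the genotypes by these names only, with no allele and no statement of which PDS5 genes are mutated, and they do not say whether the 2 libraries of a genotype came from separate plants, so p-values reflect the spread between these libraries alone, which may be technical. Plants grew on soil in long or short days, and the labels do not assign a day length or a harvest time to a library.

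Total counts ran from 19490663 to 26038662 per library. IBM1 averaged 20.1 CPM (read counts scaled to a common library size) in ibm1 jmj27, 54.7 in pds5, 20.6 in ibm1 and 54.0 in Col, so some IBM1 RNA was counted in both genotypes with the ibm1 mutation. JMJ27 averaged 8.37 CPM in ibm1 jmj27 against 60.8, 73.4 and 64.3 CPM in pds5, ibm1 and Col. PDS5A averaged 3.41 CPM and PDS5B 4.53 CPM in pds5, against 242 and 68.3 CPM in Col, while PDS5A also stood at 109 CPM in ibm1. PDS5C and PDS5E were lower in pds5 too, at 40.2 and 79.2 CPM against 144 and 146 CPM in Col, and PDS5D averaged 39.7 CPM in pds5 and 36.9 CPM in Col. PDS5E also stood below Col in ibm1 jmj27, at 104 CPM, and in ibm1, at 106 CPM, and PDS5B was at 44.0 CPM in ibm1 jmj27. The 7 floral organ identity genes used as markers of the labelled tissue, such as AP1 and SEP3, had counts in every genotype. Against Col, 3 of the 7 were higher and 2 lower in ibm1 jmj27 and in pds5, and 1 was lower in ibm1 (edgeR, adjusted p under 0.05). The 3 are 42.9% of the list and the 2 are 28.6%. Of all tested genes, 26.7% were higher and 23.8% lower in ibm1 jmj27, and 25.8% and 23.2% in pds5. The 1 in ibm1 is 14.3%, beside 14.5% of all tested genes lower. PI, for example, averaged 254 CPM in ibm1 jmj27, 298 CPM in pds5 and 176 CPM in ibm1, against 164 CPM in Col, and AG averaged 88.8, 63.0 and 97.7 CPM in these mutants, against 104 CPM in Col.

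**Figure D1:**
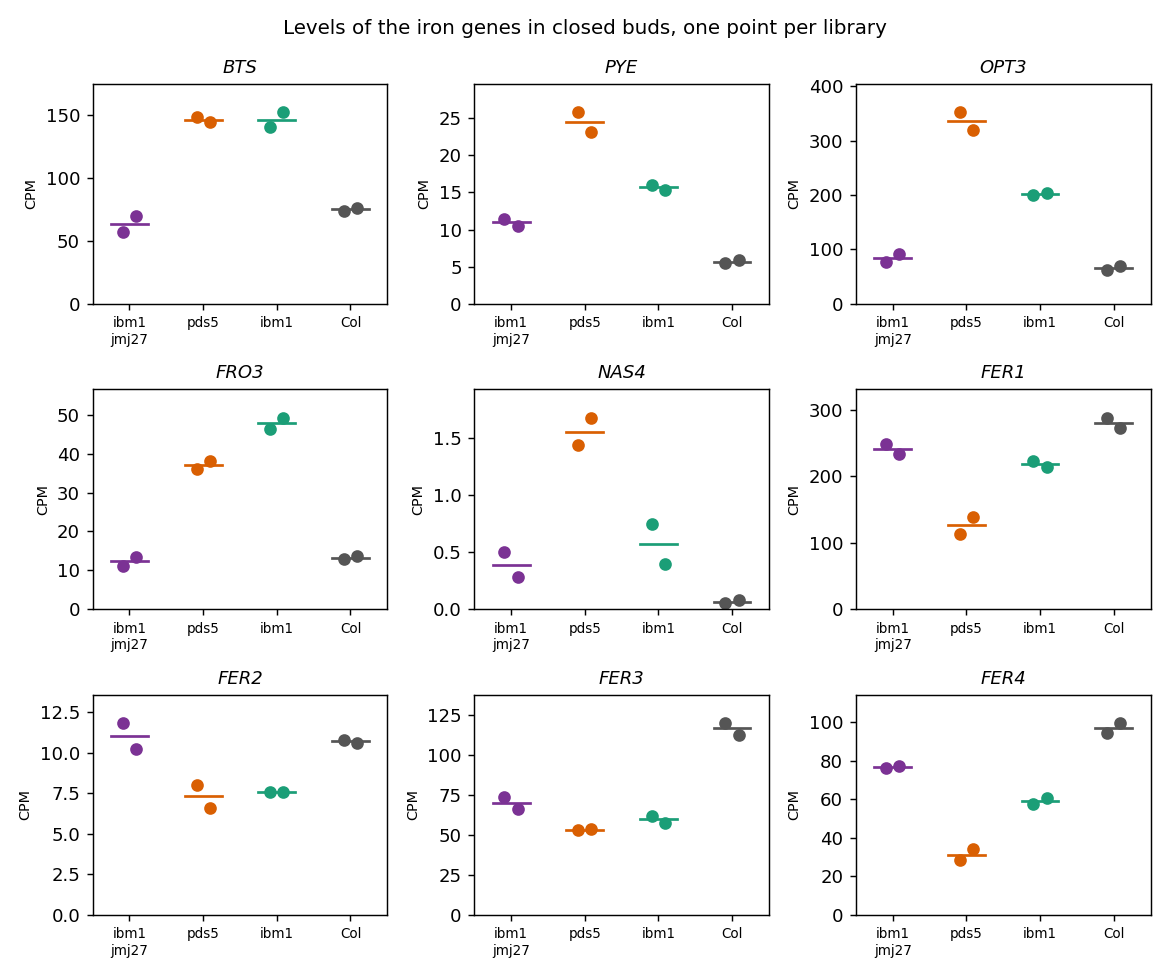
Levels of the 9 iron genes in CPM (y axis, starting at 0, one scale per gene) in ibm1 jmj27, pds5, ibm1 and Col buds; points are libraries and bars are means. OPT3 reached 352 and 319 CPM in pds5 against 61.8 and 70.0 in Col, while FER4 was at 28.2 and 34.1 CPM in pds5 against 94.3 and 99.4 in Col.

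The iron-shortage genes and the ferritins lay on opposite sides of Col in ibm1 and in pds5. BTS, PYE, OPT3, FRO3 and NAS4 were above Col in both libraries of both mutants, and FER1, FER2, FER3 and FER4 were below Col in both. In pds5 the differences on the log2 scale spanned 0.95 for BTS to 2.35 for OPT3 among the genes with ample counts, and -0.55 for FER2 to -1.64 for FER4. The double mutant ibm1 jmj27 lay nearer to Col: PYE stood 1.93-fold above Col and FER3 at 0.600 of Col, while BTS, FRO3, FER1 and FER2 differed from Col by 0.25 or less on the log2 scale in either direction.

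The sensing side is BTS and PYE. BTS measured 57.0 and 69.6 CPM in ibm1 jmj27, 148 and 144 CPM in pds5, 140 and 152 CPM in ibm1, and 73.8 and 76.4 CPM in Col. The pds5 and ibm1 libraries formed one high range and overlapped each other, and both ibm1 jmj27 libraries lay below both Col libraries. The log2 fold change over Col was -0.25 ± 0.0905 (SE) in ibm1 jmj27, 0.95 ± 0.0891 in pds5 and 0.96 ± 0.0893 in ibm1. The negative value in ibm1 jmj27 was -0.11 without its replicate 1 and -0.40 without its replicate 2.

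PYE, a bHLH transcription factor that represses genes of iron movement such as NAS4 and FRO3, measured 11.4 and 10.5 CPM in ibm1 jmj27, 25.8 and 23.2 CPM in pds5, 16.0 and 15.4 CPM in ibm1, and 5.46 and 5.93 CPM in Col. The 4 genotypes did not overlap at any point, in the order pds5, ibm1, ibm1 jmj27, Col. PYE was the gene with ample counts that stood farthest above Col in ibm1 jmj27, by 0.95 ± 0.125 on the log2 scale, against 2.1 ± 0.117 in pds5 and 1.46 ± 0.122 in ibm1. PYE and its targets NAS4 and FRO3 were thus above Col together in pds5 and ibm1. In ibm1 jmj27, PYE and NAS4, the latter at low counts, were above Col, whereas the FRO3 libraries overlapped Col.

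The transport side holds a long-distance transporter, a reductase and an enzyme that makes an iron chelator. OPT3 loads iron into the phloem and so carries it from leaves to sinks. It measured 77.4 and 92.0 CPM in ibm1 jmj27, 352 and 319 CPM in pds5, 200 and 204 CPM in ibm1, and 61.8 and 70.0 CPM in Col. As for PYE, the order was pds5, ibm1, ibm1 jmj27, Col with no overlap. OPT3 was 5.09-fold above Col in pds5 (log2 2.35 ± 0.0988) and 3.06-fold above Col in ibm1 (log2 1.61 ± 0.0974). In ibm1 jmj27 the difference of 0.36 ± 0.0970 was 0.48 without replicate 1 of that genotype and 0.23 without its replicate 2.

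FRO3, a ferric-chelate reductase of the mitochondrion, measured 11.1 and 13.4 CPM in ibm1 jmj27, 36.0 and 38.2 CPM in pds5, 46.4 and 49.2 CPM in ibm1, and 12.8 and 13.6 CPM in Col. It was highest in ibm1, unlike PYE, OPT3 and NAS4, which were highest in pds5. The log2 fold change over Col was 1.49 ± 0.0988 in pds5 and 1.85 ± 0.0986 in ibm1. The ibm1 jmj27 libraries overlapped the Col libraries, with a log2 fold change of -0.11 ± 0.109 that was 0.02 without replicate 1 of ibm1 jmj27.

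NAS4 makes nicotianamine, a small molecule that binds iron and other metals for transport. Its counts were low: 13 and 6 in ibm1 jmj27, 38 and 41 in pds5, 17 and 8 in ibm1, and 1 and 2 in Col. Scaled, these were 0.505 and 0.280 CPM in ibm1 jmj27, 1.44 and 1.68 CPM in pds5, 0.749 and 0.393 CPM in ibm1, and 0.0511 and 0.0853 CPM in Col. Every mutant library lay above both Col libraries, and the ibm1 jmj27 and ibm1 libraries overlapped each other. The ratio to Col rested on 3 Col counts and was 5.78 in ibm1 jmj27 (95% interval 1.70 to 30.5), 22.3 in pds5 (7.35 to 110) and 8.33 in ibm1 (2.54 to 43.1). These intervals cover counting error only. Of the other nicotianamine synthase genes, NAS1 had 0 counts in all libraries, NAS2 a single count in Col, and NAS3 4 counts in ibm1 jmj27, 6 in pds5, 2 in ibm1 and 0 in Col.

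Ferritins store iron and keep it from forming reactive oxygen species. FER1, FER3 and FER4 are the ferritins of leaves and flowers, and FER2 is known as the seed ferritin. FER1 measured 248 and 234 CPM in ibm1 jmj27, 114 and 139 CPM in pds5, 223 and 214 CPM in ibm1, and 288 and 273 CPM in Col. The order, without overlap, was Col, ibm1 jmj27, ibm1, pds5, the reverse of the order for PYE and OPT3. FER1 in pds5 was at 0.452 of its Col level (log2 -1.15 ± 0.0930), while the differences were -0.22 ± 0.0914 in ibm1 jmj27 and -0.36 ± 0.0917 in ibm1.

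FER4, a ferritin found in plastids and mitochondria, measured 76.2 and 77.5 CPM in ibm1 jmj27, 28.2 and 34.1 CPM in pds5, 57.5 and 60.8 CPM in ibm1, and 94.3 and 99.4 CPM in Col. It ran in the same order as FER1, again without overlap. Among the ferritins FER4 was the farthest below Col in pds5, at 0.321 of the Col level (log2 -1.64 ± 0.0861). The other log2 fold changes were -0.34 ± 0.0817 in ibm1 jmj27 and -0.71 ± 0.0830 in ibm1.

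FER3 measured 73.8 and 66.1 CPM in ibm1 jmj27, 53.1 and 53.5 CPM in pds5, 61.8 and 57.8 CPM in ibm1, and 120 and 113 CPM in Col. All 6 mutant libraries lay well below Col and close to one another. Its log2 fold change over Col was -0.74 ± 0.0743 in ibm1 jmj27, -1.13 ± 0.0751 in pds5 and -0.96 ± 0.0751 in ibm1, the narrowest range among the 4 ferritins.

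FER2 measured 11.8 and 10.2 CPM in ibm1 jmj27, 8.03 and 6.58 CPM in pds5, 7.58 and 7.57 CPM in ibm1, and 10.8 and 10.6 CPM in Col. The ibm1 jmj27 libraries lay on either side of Col, with a log2 fold change of 0.04 ± 0.138 that was -0.07 without replicate 1 of ibm1 jmj27. In pds5 the log2 fold change was -0.55 ± 0.142 and in ibm1 it was -0.50 ± 0.144, and those mutants overlapped each other.

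**Figure D2:**
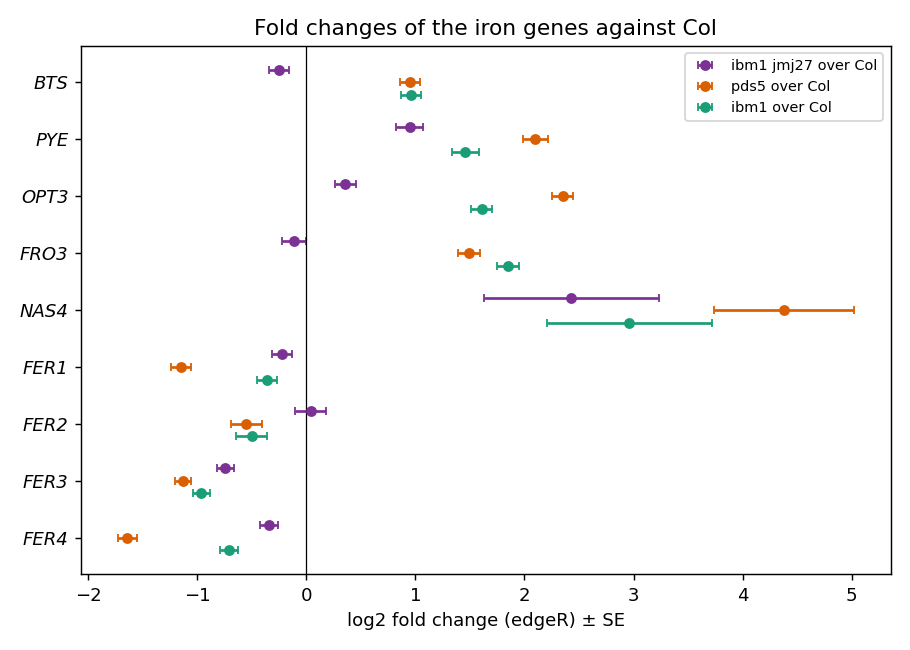
Log2 fold change over Col (x axis, edgeR estimate with its SE) of the 9 genes (y axis) in ibm1 jmj27, pds5 and ibm1; the NAS4 points rest on 3 counts in Col. In pds5 the points run from 4.38 for NAS4, 2.35 for OPT3 and 2.1 for PYE down to -1.64 for FER4, while in ibm1 jmj27 BTS, FRO3, FER1 and FER2 lie within 0.25 of 0.

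Summed over the 4 genes, ferritin RNA was 409 and 388 CPM in ibm1 jmj27, 204 and 233 CPM in pds5, 350 and 340 CPM in ibm1, and 513 and 497 CPM in Col. The mean was thus 399 ± 15.2 CPM (SD, n = 2) in ibm1 jmj27, 218 ± 21.2 CPM in pds5, 345 ± 6.87 CPM in ibm1 and 505 ± 11.5 CPM in Col. The mix of ferritins also moved: FER4 made up 19.3% of ferritin counts in ibm1 jmj27, 14.2% in pds5, 17.2% in ibm1 and 19.2% in Col. FER3 made up 17.5%, 24.5%, 17.3% and 23.1% in the same genotypes, so that the FER3 share in pds5 was near that in Col. These shares are of counts and are not corrected for transcript length. In whole buds, fewer cells of a type and less RNA per cell cannot be told apart.

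**Figure D3:**
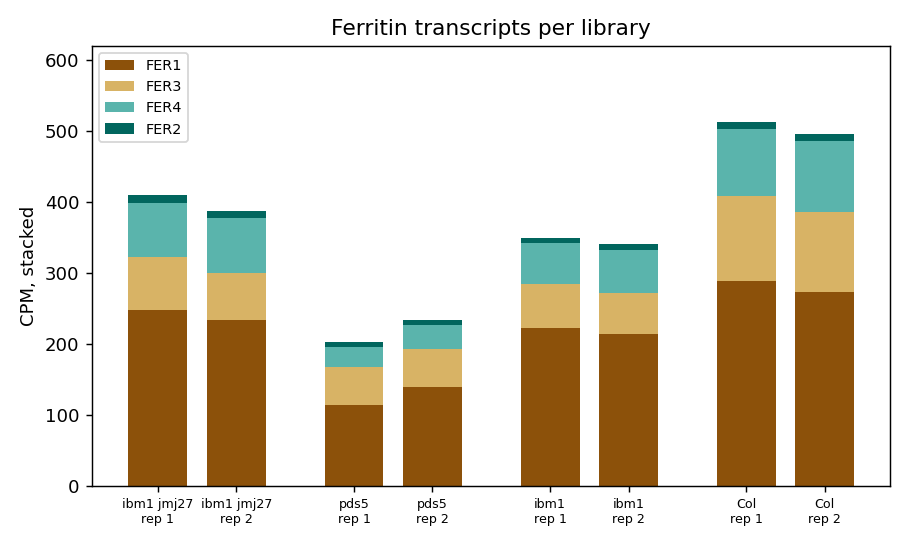
Ferritin CPM stacked by gene (y axis, starting at 0) for each library of ibm1 jmj27, pds5, ibm1 and Col. The stack reaches 204 and 233 CPM in pds5 against 513 and 497 CPM in Col, and the ibm1 jmj27 and ibm1 stacks lie between.

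Counted by libraries that did not overlap, 3 of the 9 genes lay above and 4 below in ibm1 jmj27 against Col, where 38.8% of all tested genes lay above, 34.6% lay below and 50.5% passed the test in either direction. In pds5 against Col, 5 lay above and 4 below, where the shares over all tested genes were 39.3% and 38.9%, with 49.0% past the test. In ibm1 against Col the counts were also 5 above and 4 below, beside 37.4% and 34.2% of all tested genes, with 31.0% past the test. Nothing is read from the counts for 9 chosen genes. Replicates differed little: the coefficient of variation within a genotype ran from 0.0573% to 14.1% for the genes other than NAS4, and from 10.7% to 44.0% for NAS4.

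Between the mutants, adding jmj27 to ibm1 went with levels nearer to Col for most of the genes. In ibm1 jmj27 against ibm1, the log2 fold change was -1.21 ± 0.0899 for BTS, -1.25 ± 0.0958 for OPT3, -1.97 ± 0.0985 for FRO3 and -0.51 ± 0.111 for PYE, each with the ibm1 jmj27 libraries below the ibm1 libraries. FER1 was at 0.14 ± 0.0916, FER2 at 0.54 ± 0.143, FER3 at 0.23 ± 0.0757 and FER4 at 0.38 ± 0.0832, each with the ibm1 jmj27 libraries above the ibm1 libraries. NAS4 overlapped, at -0.52 ± 0.526, a value that was 0.02 without replicate 1 of ibm1. In this comparison 4 genes lay above and 4 below without overlap, beside 35.8% and 35.7% of all tested genes, with 45.5% past the test.

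In ibm1 jmj27 against pds5, OPT3 stood at -1.99 ± 0.0970 on the log2 scale, NAS4 at -1.95 ± 0.452, FRO3 at -1.60 ± 0.0988, BTS at -1.20 ± 0.0897 and PYE at -1.16 ± 0.107. All 4 ferritins were higher in ibm1 jmj27 than in pds5, by 1.30 ± 0.0861 for FER4, 0.93 ± 0.0927 for FER1, 0.59 ± 0.141 for FER2 and 0.39 ± 0.0755 for FER3. No gene overlapped, with 4 above and 5 below, beside 33.6% and 34.7% of all tested genes, with 39.9% past the test.

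In pds5 against ibm1, BTS and FER2 overlapped, with log2 fold changes of 0.00 ± 0.0870 and -0.05 ± 0.147. OPT3, PYE and NAS4 were higher in pds5 by 0.73 ± 0.0932, 0.64 ± 0.104 and 1.42 ± 0.432. FRO3 was lower in pds5, at -0.36 ± 0.0883, as were FER4 at -0.93 ± 0.0869, FER1 at -0.79 ± 0.0927 and FER3 at -0.17 ± 0.0762. Here 3 genes lay above and 4 below without overlap, beside 38.4% of all tested genes in each direction and 44.5% past the test.

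Around the 9 genes, 81 other genes of iron biology were followed in 5 lists by role, and the 69 that passed the filter were tested with edgeR's quasi-likelihood test and Benjamini-Hochberg adjustment over all 21548 genes. In ibm1 jmj27 against Col, 31 were higher and 10 lower, with a median log2 fold change of 0.30 beside 0.03 over all tested genes, of which 26.7% were higher and 23.8% lower. In pds5 against Col, 34 were higher and 13 lower, with a median of 0.23 beside 0.00, and 25.8% of all tested genes were higher and 23.2% lower. In ibm1 against Col, 26 were higher and 3 lower, with a median of 0.18 beside 0.02, and 16.5% of all tested genes were higher and 14.5% lower. The 3 lower genes in ibm1 became 8 without either ibm1 jmj27 library, and the 13 in pds5 became 8 without replicate 1 of pds5 or replicate 2 of Col. These comparisons share the Col libraries. The lists were drawn up with earlier results of these data known, so their counts and shares are a description.

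**Figure D4:**
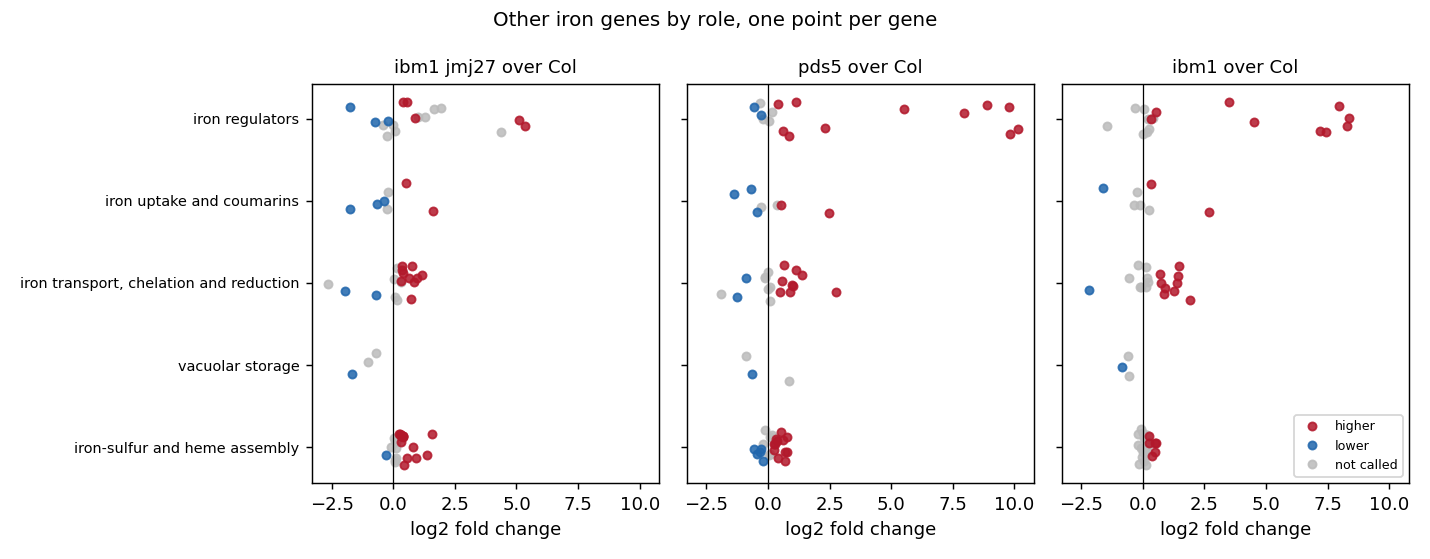
Log2 fold change over Col (x axis) of the 69 other iron genes tested, one point per gene, by role (y axis) and coloured by whether the gene passed the test. The regulators reach above 8 in pds5 and ibm1 and 5.35 in ibm1 jmj27; fitted values of genes with 0 to 3 counts in Col, IMA3 among them, depend on the prior count.

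Among the regulators, 5 of 17 rose and 3 fell in ibm1 jmj27, 11 rose and 2 fell in pds5, and 9 rose and 0 fell in ibm1. The 5 that rose in ibm1 jmj27 are 29.4% of the list, close to the 26.7% higher among all tested genes. The shares that rose were 64.7% in pds5 and 52.9% in ibm1, beside 25.8% and 16.5% of all tested genes. The list holds the IMA genes and bHLH factors described below and was drawn up with earlier results known, so nothing more is read from these shares. The 2 that fell in pds5 ran from 1 to 3 with 1 library left out and became 1 without replicate 2 of pds5, either ibm1 library or either Col library. The 0 that fell in ibm1 became 1 without either ibm1 jmj27 library. IMA1 and IMA2 encode the IRONMAN peptides that shield bHLH IVc factors from BTS. Like NAS4, IMA1 and IMA2 passed the filter on low counts only through their counts in the mutants, so their p-values against Col are a description. IMA1 had 36 and 19 counts in ibm1 jmj27, 880 and 789 in pds5, 224 and 158 in ibm1, and 0 and 1 in Col. Both libraries of each mutant were far above Col, with a ratio of 50.2 in ibm1 jmj27 (95% interval 8.64 to 2020; edgeR adjusted p = 2.4e-05), 1410 in pds5 (253 to 55800; adjusted p = 4.31e-11) and 382 in ibm1 (68.1 to 15100; adjusted p = 1.33e-08).

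IMA2 had 69 and 17 counts in ibm1 jmj27, 1153 and 1196 in pds5, 278 and 285 in ibm1, and 2 and 0 in Col. It rose in ibm1 jmj27 (edgeR adjusted p = 0.00564), in pds5 (adjusted p = 5.07e-06) and in ibm1 (adjusted p = 0.000123). IMA1 and IMA2 are neighbouring genes alike in sequence, so that the split of counts between them is uncertain. The order pds5, ibm1, ibm1 jmj27, Col was the one seen for PYE and OPT3.

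The bHLH Ib factors work with FIT to drive iron uptake in roots. They were named after their values were seen, as were IMA3, FRO2, FRD3, BTSL1, BTSL2 and the bHLH IVc factors ILR3, bHLH34, bHLH104 and bHLH115. bHLH38 and bHLH39 passed the filter on low counts only through mutants, so the p-values of bHLH38 against Col are a description. bHLH38 had 4 and 0 counts in ibm1 jmj27, 322 and 367 in pds5, 222 and 189 in ibm1, and 1 and 0 in Col. It rose in pds5 (edgeR adjusted p = 3.35e-09) and ibm1 (adjusted p = 4.81e-08) and did not pass in ibm1 jmj27 (adjusted p = 0.342). bHLH39, its neighbour, had 3 counts in ibm1 jmj27, 359 in pds5, 181 in ibm1 and 1 in Col, and the counts of this similar pair are uncertain. bHLH100 measured 1.05 and 0.747 CPM in ibm1 jmj27, 5.46 and 6.90 CPM in pds5, 14.0 and 13.6 CPM in ibm1, and 0.664 and 1.71 CPM in Col. Like FRO3, it was highest in ibm1, and the ibm1 jmj27 libraries overlapped Col; it fell in ibm1 jmj27 against ibm1 (log2 -3.92 ± 0.287, edgeR adjusted p = 2.28e-07).

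IMA3 had 5 counts in ibm1 jmj27, 250 in pds5 and 40 in ibm1, and 0 in Col, so that it was at least 70.5-fold higher in pds5 and at least 13.3-fold higher in ibm1, with a floor of 3 counts over the 2 Col libraries. BTSL1 and BTSL2, ligases related to BTS that are best known from roots, both fell in ibm1 jmj27, with log2 fold changes of -1.77 ± 0.426 (edgeR adjusted p = 0.00349) and -0.75 ± 0.151 (adjusted p = 0.00102). The BTSL1 value rested on 8 and 12 counts in ibm1 jmj27 against 30 and 33 in Col. It ran from -2.22 to -1.38 with 1 library left out. BTSL1 passed the filter on low counts through the other genotypes, so its p-value in ibm1 jmj27 is a description. BTSL1 averaged 0.435 CPM in ibm1 jmj27, 2.69 CPM in pds5, 1.96 CPM in ibm1 and 1.47 CPM in Col, and its higher level in pds5 (adjusted p = 0.0403) did not pass without either pds5 library, without either Col library or with DESeq2.

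The bHLH IVc factors, which the IMA peptides shield from BTS, did not all have the same pattern. ILR3 averaged 94.9 CPM in ibm1 jmj27, 78.4 CPM in pds5, 89.6 CPM in ibm1 and 89.2 CPM in Col and did not pass the test in any mutant (edgeR adjusted p = 0.408, 0.0915 and 0.967). bHLH34 measured 25.2 and 18.0 CPM in ibm1 jmj27, 25.3 and 26.2 CPM in pds5, 16.5 and 17.2 CPM in ibm1, and 12.7 and 10.7 CPM in Col. It rose 1.86-fold in ibm1 jmj27, 2.21-fold in pds5 and 1.44-fold in ibm1, with SEs of 0.145, 0.142 and 0.149 on the log2 scale (edgeR adjusted p = 0.000196, 2.07e-05 and 0.0161). The call in ibm1 was lost without either ibm1 library (adjusted p = 0.0706 and 0.103) and without replicate 2 of Col (adjusted p = 0.163). bHLH104 averaged 37.4 CPM in ibm1 jmj27, 42.7 CPM in pds5, 33.0 CPM in ibm1 and 28.2 CPM in Col. It rose in ibm1 jmj27 (log2 0.41 ± 0.0830, edgeR adjusted p = 0.00102) and pds5 (log2 0.60 ± 0.0821, adjusted p = 4.15e-05), and in ibm1 its log2 fold change of 0.23 ± 0.0842 did not pass (adjusted p = 0.0554). bHLH115 averaged 89.4 CPM in ibm1 jmj27, 82.3 CPM in pds5, 78.1 CPM in ibm1 and 61.4 CPM in Col. It rose by 0.54 ± 0.103 in ibm1 jmj27, 0.42 ± 0.103 in pds5 and 0.35 ± 0.103 in ibm1 on the log2 scale (edgeR adjusted p = 0.000698, 0.00406 and 0.0218). In ibm1 jmj27 the value was 0.34 without its replicate 1, and the call in ibm1 was lost without either ibm1 library (adjusted p = 0.0798 and 0.152) and without either Col library (adjusted p = 0.125 and 0.104).

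Of the 7 genes of root-type uptake and coumarin synthesis tested, 2 rose and 3 fell in ibm1 jmj27 and in pds5, and 2 rose and 1 fell in ibm1. The 2 that rose are 28.6% of the list, beside 26.7% higher among all genes in ibm1 jmj27, 25.8% in pds5 and 16.5% in ibm1. The 3 that fell in ibm1 jmj27 and in pds5 are 42.9%, beside 23.8% and 23.2% of all genes, and the 1 that fell in ibm1 is 14.3%, beside 14.5%. In ibm1 the 2 that rose became 1 without replicate 2 of ibm1 or replicate 1 of Col, and the 1 that fell became 2 without either ibm1 jmj27 library. FRO2, the ferric reductase of the root surface, averaged 1.45 CPM in ibm1 jmj27, 2.59 CPM in pds5, 3.07 CPM in ibm1 and 0.468 CPM in Col, and rose in each mutant (edgeR adjusted p = 0.0024, 4.88e-05 and 4.94e-05). It had 42 and 27 counts in ibm1 jmj27, 75 and 57 in pds5, 79 and 54 in ibm1, and 10 and 10 in Col. FRO2 passed the filter on low counts only through the mutants, so these p-values are a description. IRT1, the ferrous iron importer, measured 4.54 and 5.65 CPM in ibm1 jmj27, 4.43 and 5.56 CPM in pds5, 7.44 and 6.14 CPM in ibm1, and 6.03 and 9.93 CPM in Col. It fell in ibm1 jmj27 (log2 -0.66 ± 0.229, edgeR adjusted p = 0.0275) and pds5 (log2 -0.69 ± 0.227, adjusted p = 0.0231), but without replicate 2 of Col the values were -0.25 (adjusted p = 0.447) and -0.28 (adjusted p = 0.408). Without replicate 1 of the mutant they were -0.51 (adjusted p = 0.139) and -0.53 (adjusted p = 0.156).

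F6'H1, an enzyme of coumarin synthesis, fell in every mutant: it averaged 3.15 CPM in ibm1 jmj27, 4.1 CPM in pds5 and 3.52 CPM in ibm1, against 10.6 CPM in Col (edgeR adjusted p = 0.000106, 0.00053 and 5e-04). The pds5 libraries stood apart at 2.65 and 5.56 CPM, and the log2 fold change of -1.38 in pds5 was -0.93 without replicate 1 of pds5 and -2.0 without its replicate 2. COSY, a later enzyme of the same route, rose by 0.51 ± 0.0814 in ibm1 jmj27, 0.52 ± 0.0810 in pds5 and 0.33 ± 0.0825 in ibm1 on the log2 scale (edgeR adjusted p = 0.000148, 0.000132 and 0.00851). In ibm1 the COSY call was lost with the DESeq2 Wald test (adjusted p = 0.0504), without replicate 2 of ibm1 (adjusted p = 0.0828) and without replicate 1 of Col (adjusted p = 0.0807).

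Of 18 genes of transport, chelation and reduction tested, 10 rose and 2 fell in ibm1 jmj27, 9 rose and 2 fell in pds5, and 9 rose and 1 fell in ibm1. The shares that rose were 55.6% in ibm1 jmj27 and 50.0% in both pds5 and ibm1, beside 26.7%, 25.8% and 16.5% of all tested genes. The shares that fell were 11.1% in ibm1 jmj27 and in pds5 and 5.56% in ibm1, beside 23.8%, 23.2% and 14.5%. The 2 that fell in pds5 became 1 without replicate 1 of pds5 or replicate 2 of Col, and the 1 that fell in ibm1 became 2 without any 1 of the ibm1 jmj27 or pds5 libraries. YSL2, a transporter of metal-nicotianamine complexes, measured 6.29 and 7.75 CPM in ibm1 jmj27, 18.3 and 24.6 CPM in pds5, 8.32 and 8.50 CPM in ibm1, and 3.32 and 2.94 CPM in Col. It rose by 1.16 ± 0.194 in ibm1 jmj27, 2.78 ± 0.178 in pds5 and 1.43 ± 0.192 in ibm1 on the log2 scale (edgeR adjusted p = 0.000227, 2.14e-08 and 8.42e-05). Its order of levels was that of PYE and OPT3.

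NRAMP1, a manganese and iron importer, averaged 36.1 CPM in ibm1 jmj27, 52.9 CPM in pds5, 36.8 CPM in ibm1 and 20.1 CPM in Col, and rose in each mutant (edgeR adjusted p = 1.73e-06, 7.85e-09 and 3.89e-06). FRO7, the ferric reductase of chloroplasts, averaged 70.7 CPM in ibm1 jmj27, 66.8 CPM in pds5, 100 CPM in ibm1 and 36.1 CPM in Col. Its counts were 3295, 3397, 4322 and 1546 in that order, and FRO6, at the next locus, had 3371, 3450, 4869 and 1859. Both are in the list, and the split of counts between this pair is uncertain. FRO7 also rose in each mutant (edgeR adjusted p = 4.58e-05, 8.91e-05 and 4.12e-06). FRD3, a citrate exporter that keeps iron soluble in the xylem and in the spaces around pollen, went the other way: it averaged 0.606 CPM in ibm1 jmj27, 0.987 CPM in pds5, 0.515 CPM in ibm1 and 2.34 CPM in Col. FRD3 fell in each mutant (edgeR adjusted p = 0.000549, 0.00724 and 0.000715), and in pds5 the call was lost without replicate 1 of pds5 (adjusted p = 0.0691) or replicate 2 of Col (adjusted p = 0.0516).

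Besides the ferritins, iron is stored in vacuoles. Of the 3 vacuolar importers tested, VTL1 was the only one to pass against Col, and it was lower. It is 33.3% of the list, and 23.8% of all tested genes were lower in ibm1 jmj27, 23.2% in pds5 and 14.5% in ibm1. The 1 gene lower in ibm1 jmj27 became 2 without replicate 2 of ibm1 jmj27. VTL1 averaged 1.76 CPM in ibm1 jmj27, 3.56 CPM in pds5, 3.13 CPM in ibm1 and 5.61 CPM in Col. The fall in ibm1 jmj27 was -1.68 ± 0.227 on the log2 scale (edgeR adjusted p = 3.43e-05). In pds5 it was -0.66 ± 0.205 (adjusted p = 0.0167), and it did not pass without either pds5 library, without replicate 2 of Col or with DESeq2. In ibm1 it was -0.85 ± 0.212 (adjusted p = 0.00812), and it did not pass without replicate 1 of ibm1 or replicate 2 of Col.

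Iron is used in iron-sulfur clusters and heme, and 14 of the 24 genes of their assembly rose and 1 fell in ibm1 jmj27, 12 rose and 5 fell in pds5, and 6 rose and 0 fell in ibm1. The shares that rose were 58.3% in ibm1 jmj27, 50.0% in pds5 and 25.0% in ibm1, beside 26.7%, 25.8% and 16.5% of all tested genes, and the 5 that fell in pds5 are 20.8%, near the 23.2% of all genes. The 6 in ibm1 became 10 without replicate 2 of ibm1 jmj27, and the 5 in pds5 became 3 without replicate 1 of pds5. The 0 that fell in ibm1 became 2 without either ibm1 jmj27 library and 1 without replicate 1 of ibm1. HEMA1, which starts tetrapyrrole synthesis, measured 249 and 320 CPM in ibm1 jmj27, 177 and 193 CPM in pds5, 155 and 151 CPM in ibm1, and 109 and 107 CPM in Col, and rose in each mutant (edgeR adjusted p = 1.13e-07, 3.34e-05 and 0.0025). NEET, a protein that carries iron-sulfur clusters, averaged 75.1 CPM in ibm1 jmj27, 43.4 CPM in pds5, 22.8 CPM in ibm1 and 25.5 CPM in Col. It rose in ibm1 jmj27 (adjusted p = 4.22e-08) and pds5 (adjusted p = 4.85e-05) and did not pass in ibm1 (adjusted p = 0.319). Both HEMA1 and NEET had their highest mean in ibm1 jmj27.

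Compared with one another, the mutants also differed across the iron genes. In ibm1 jmj27 against ibm1, 14 of the 69 were higher and 23 lower (edgeR, adjusted p under 0.05), beside 22.7% and 22.8% of all tested genes, with 2 of the 17 regulators higher and 10 lower. The 2 became 5 without replicate 2 of ibm1 jmj27 and 1 without any other 1 of the 8 libraries. The 14 became 8 without replicate 1 of ibm1 and 6 without its replicate 2, and the total of 37 became 22 without that replicate 2. In ibm1 jmj27 against pds5, 14 were higher and 19 lower, beside 19.1% and 20.7% of all tested genes, and the 14 became 8 or 9 without either pds5 library. In pds5 against ibm1, 23 were higher and 18 lower, beside 22.9% and 21.5%, and the 23 became 14 or 15 without either ibm1 library.

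Markers of clock state and tissue moved with the genotypes beside the iron genes. LHY, a morning gene of the circadian clock, measured 484 and 502 CPM in ibm1 jmj27, 607 and 597 CPM in pds5, 18.6 and 20.5 CPM in ibm1, and 3.01 and 2.86 CPM in Col. CCA1, its partner, averaged 193 CPM in ibm1 jmj27, 380 CPM in pds5, 49.4 CPM in ibm1 and 5.14 CPM in Col. All 12 clock genes followed passed the test in each mutant against Col. Of all tested genes, 50.5% passed in ibm1 jmj27, 49.0% in pds5 and 31.0% in ibm1. Over the 8 libraries, the Pearson correlation of log2 CPM with LHY was 0.10 for BTS, 0.71 for PYE, 0.48 for OPT3, 0.11 for FRO3 and 0.75 for NAS4. It was -0.66 for FER1, -0.22 for FER2, -0.74 for FER3 and -0.63 for FER4. These values are a description. Genotype and clock state cannot be told apart in these libraries.

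The 10 light-harvesting genes summed to 15000 CPM in ibm1 jmj27, 9630 CPM in pds5, 12200 CPM in ibm1 and 5730 CPM in Col, with 10, 8 and 10 of them higher than in Col. Of all tested genes, 26.7%, 25.8% and 16.5% were higher in these mutants. The 12 tapetum markers, from the anther layer that feeds pollen, summed to 1120 and 1880 CPM in ibm1 jmj27, 666 and 1010 CPM in pds5, 1180 and 1130 CPM in ibm1, and 1890 and 2120 CPM in Col. Of these 12, 4 (33.3%) were lower in ibm1 jmj27, 8 (66.7%) in pds5 and 5 (41.7%) in ibm1. Of all tested genes, 23.8%, 23.2% and 14.5% were lower. The 9 pollen markers summed to 11.3 CPM in ibm1 jmj27, 353 CPM in pds5, 118 CPM in ibm1 and 334 CPM in Col, and ADF7 was at 0 counts in ibm1 jmj27. Of the 8 pollen markers tested, 7 were lower in ibm1 jmj27, 1 was higher and 1 lower in pds5, and 1 was higher and 7 lower in ibm1. The 7 in ibm1 jmj27 had from 0 counts (ADF7) to 7 counts (VGD1 and ACA9) there. They passed the filter on low counts only through other genotypes, so their calls in ibm1 jmj27 are a description. The 7 are 87.5% of those tested and the 1 is 12.5%, beside the shares of all tested genes just given. In ibm1 jmj27 ANX1 made up 10.8 of the 11.3 CPM and stood at 10.4 CPM in Col, while VGD1 averaged 0.144 CPM in ibm1 jmj27 against 83.9 CPM in Col. The part of bud makeup in the iron gene levels was not tested.

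**Figure D5:**
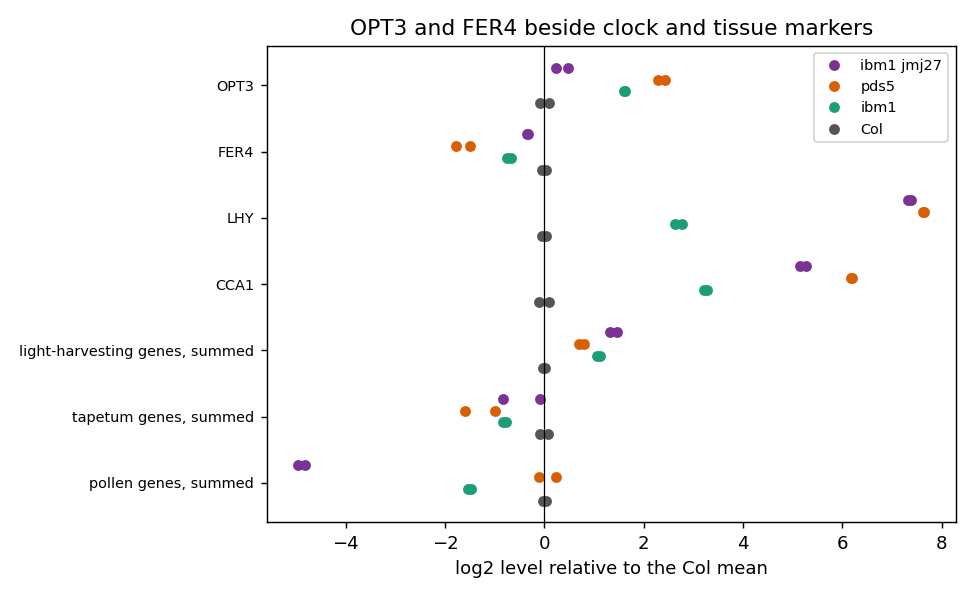
Log2 level relative to the Col mean (x axis) of OPT3, FER4 and clock and tissue markers (y axis), one point per library of ibm1 jmj27, pds5, ibm1 and Col. LHY lies above 7 in both ibm1 jmj27 and pds5. OPT3 is at 0.24 and 0.48 in ibm1 jmj27 and at 2.42 and 2.28 in pds5. The other iron genes are not drawn.

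For each gene, the most similar patterns among 9147 named genes were taken by Pearson correlation of log2 CPM over the 8 libraries, which form 4 genotype pairs. The pairs were not equally close: counts of the 2 libraries differed with a chi-square per degree of freedom of 15 in ibm1 jmj27, 5.78 in pds5, 2.34 in ibm1 and 2.95 in Col. Such values are high for many genes and are a description only. FER1 was closest to FER4 (r = 0.983), and FER1 was the third for FER4 after CDT1A (0.990) and PAB7 (0.986). FER3 was closest to SMT1 (0.991) and FER2 to PERK14 (0.974), so these ferritins had their nearest patterns outside the family. OPT3 was closest to G3Pp4 (0.992) and NAC032 (0.988), PYE to OBP4 (0.995) and DGAT3 (0.994), NAS4 to IND (0.995), FRO3 to NSH3 (0.993), and BTS to CP12-3 (0.986).

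Of the 18 genes directly next to the 9 on the chromosome, 15 were tested, and 6 passed the test in each mutant against Col: 5 higher and 1 lower in ibm1 jmj27, and 4 higher and 2 lower in pds5 and in ibm1. The share over all tested genes was 50.5% in ibm1 jmj27, 49.0% in pds5 and 31.0% in ibm1. Some neighbours lay on the same side of Col as the gene beside them: AT1G56423, next to NAS4, was higher by 0.68 in ibm1 jmj27, 0.58 in pds5 and 0.41 in ibm1 on the log2 scale, and ENGase85B, next to FER2, was at -0.66 in pds5. ENGase85B was also lower in ibm1 jmj27, at -1.36, where FER2 was at 0.04. Others lay on the opposite side. FER3 had a neighbour, AT3G56080, that was higher by 0.36 in ibm1 jmj27, 1.13 in pds5 and 0.96 in ibm1 on the log2 scale, while FER3 itself was below Col. The neighbours of OPT3 were at 0.02 and 0.11 in pds5 on the log2 scale and did not pass the test, where OPT3 itself was at 2.35. The second of them, AT4G16380, was higher by 0.37 in ibm1 jmj27, where OPT3 was at 0.36, and by 0.24 in ibm1.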

How the data were processed

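RNA of closed buds was selected on poly(A) beads and sequenced as paired reads on an Illumina NovaSeq, per the labels' protocols. The authors deposited 3 tables of unnormalized counts that share the Col libraries, made with HISAT2 and Subread on TAIR10 and used with DESeq2, per the submitters' processing notes. How multiply mapped reads were treated, which annotation and strand setting were used and in which tool versions is not given in the sources used here, and counts of similar or overlapping genes are uncertain. The 20 chromatin and input libraries were not analysed here, and 0 columns were left unmapped. A RefSeq table of another assembly release gave symbols and neighbours for 26719 of 27416 genes; no coordinates or sequences are printed.

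Total counts were 19490663 to 26038662 per library. In R 4.3.3 the 8 libraries were fitted together with edgeR 4.0.16 (TMM scaling, filterByExpr, robust quasi-likelihood test, a mean per genotype, 4 residual degrees of freedom). A gene was called when its p, adjusted by Benjamini-Hochberg over 21548 genes, was under 0.05. CPM are counts scaled by TMM library sizes, with the SD of 2 libraries. The SE was derived from the log2 fold change and the F statistic, as their size divided by the root of F, and can fall below counting error at few counts, as for NAS4. Ratios on 1 to 3 counts carry an exact 95% interval, and a count of 0 was bounded at 3 counts over the genotype. The pipeline was tested on simulated data.

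The 9 genes and the lists were chosen with earlier results of these data known. Named beside the 9 were the 2 genes per iron list and comparison with the largest absolute log2 fold change among those called with a mean log2 CPM of at least 1, the 3 most similar patterns per gene (1 to 3 of them printed), LHY and CCA1, and the targeted genes; not all are printed. Alternatives were DESeq2 size factors, no filter, each pair of genotypes alone, the Wald test of DESeq2 1.42.0, a replicate term, no robust estimation, an adjusted p under 0.01 and each library left out.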

Additional observations from a re-analysis of the deposited data

How the results depend on the processing

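The log2 fold changes of BTS, PYE, OPT3, FRO3 and the ferritins over Col kept their sign in pds5 and ibm1 under every alternative run, and NAS4 in pds5 ranged from 4.11 without replicate 1 of Col to 4.79 without its replicate 2. With 1 library left out, NAS4 ran from 2.41 to 3.36 in ibm1 and from 1.92 to 2.84 in ibm1 jmj27. In those 2 mutants NAS4 had a value under 13 alternatives, against 14 in pds5. In ibm1 jmj27, FRO3 and FER2 changed sign with 1 library left out, as given above. Leaving out 1 library at a time moved the genes called to between 3709 and 9015 in ibm1 against Col (6680 with all libraries), 6451 and 10955 in ibm1 jmj27 against ibm1 (9798), and 6348 and 11653 in pds5 against ibm1 (9583). For the iron genes it moved the number called lower to between 2 and 8 in ibm1 against Col and 8 and 15 in pds5 against Col. In ibm1 jmj27 against ibm1 it moved the total to between 22 and 42 and the number higher to between 6 and 18. The number higher ran from 8 to 15 in ibm1 jmj27 against pds5 and from 14 to 26 in pds5 against ibm1. With an adjusted p under 0.01, 4017 genes were called in ibm1 against Col and 5550 in ibm1 jmj27 against pds5, and the iron genes called higher were 8 in ibm1 jmj27 against ibm1, 7 in ibm1 jmj27 against pds5 and 15 in pds5 against ibm1. The DESeq2 Wald test called 9 iron genes higher in ibm1 jmj27 against pds5, and ibm1 and Col fitted alone gave 9 lower. The cause of these shifts was not tested. Same-numbered libraries showed little shared deviation (correlations from -0.01 to 0.10). With 2 libraries per genotype this cannot exclude that same-numbered libraries were handled together. With the replicate block 11137 genes were called in ibm1 jmj27, 10846 in pds5 and 7027 in ibm1 against Col, and no count moved by over 1.5 times. NAS4, IMA1, IMA2, bHLH38 and bHLH39 are limited by 1 to 3 counts in Col and passed the filter only through their counts in mutants. FRO2, with 10 and 10 counts in Col, also passed it only through mutants.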
